A study of Bos taurus with 8 samples.

Results

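Transcripts of 8 matricellular and adhesive glycoproteins were followed from bovine muscle through long-term culture: fibronectin (FN1), tenascin-C (TNC), thrombospondins 1 and 2 (THBS1, THBS2), periostin (POSTN), SPARC, CTHRC1 and TGFBI. They were chosen by gene symbol, with earlier results of these data known, and are 8 of the 21880 annotated genes in the deposited matrices. Counts of called members are therefore set beside the share of all genes as a description only. Each symbol matched a gene in every library.

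Matricellular proteins are secreted into the extracellular matrix, where they modulate how cells attach, spread, migrate and receive growth factor signals, more than they build the scaffold itself. Fibronectin, by contrast, forms fibrils to which cells adhere through integrins. In skeletal muscle, fibro-adipogenic progenitors (FAPs) are a major source of interstitial matrix, and satellite cells (SCs), the muscle stem cells, lie between the muscle fibre and its basement membrane.

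The study used single-cell RNA sequencing (10x Chromium 3′ chemistry with unique molecular identifiers, UMIs) at 5 stages of a proliferation process for cultured meat. Cells were released by collagenase from the semitendinosus of 10 Belgian Blue cattle, pooled across donors for each stage and assigned back to donors by genotype. The muscle library held unsorted cells directly after isolation, and passage 0 (P0) held unsorted cells that had been plated for 72 h on fibronectin, without serum. At passages 2, 5 and 8 (P2, P5, P8) the same growth medium was used for 3 kinds of culture from different donors: unsorted cells on fibronectin (donors 1, 2 and 9), sorted SCs on laminin-521 (donors 5, 6 and 10) and sorted FAPs on collagen I (donors 4, 7 and 8). Donor 3 was sampled at muscle only. The methods list calves and adults among the donors of each kind of culture, and age was not compared here. Because each stage was 1 pooled library, stage and library cannot be told apart, and because sort, coating and donors changed together between cultures, those cannot be told apart either.

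The libraries held 2772 to 10405 assigned cells, with a median of 4184 UMIs per cell at muscle and 18340 to 27239.5 in the 4 culture libraries. Cell types are the authors' labels, among them vascular and lymphatic endothelial cells (VECs, LECs) and smooth muscle and mesenchymal cells (SMMCs). Marker genes were summed by label, and in 24 of 24 combinations of type and stage the markers of a type were highest in the cells carrying its label. The labels come from the same expression values, so this describes them and does not test them. Within a label, FAP or myocyte markers could still exceed its own, in CPM (UMIs of the genes per 1000000 UMIs of the cells). FAP markers did so in tenocytes at muscle (23860 against 8660), in SCs at P0 (1478 against 163), P2 (2251 against 593), P5 (2513 against 700) and P8 (3269 against 459.5), and at P0 in macrophages (1364 against 1284) and glia (703 against 550). Myocyte markers did so in SCs at P5 (1276) and P8 (3926). As a ratio, the narrowest margin between types was that of FAP markers at muscle, at 27530 CPM in FAPs against 23860 in tenocytes. Between 4 and 29 cell barcodes were shared by any pair of libraries (258 of 36129 cells). UMIs were summed by donor, type and stage where a donor had at least 10 cells of the type, and levels below are CPM of such a sum, with the donor as replicate. They are relative to all RNA of the cells, so a smaller share and less RNA per cell cannot be told apart. UMIs per cell were higher at P0 than at muscle in every donor sampled at both stages in all 6 types compared, from a mean of 6019 to 23610 in FAPs and from 4311 to 19050 in SCs, and sequencing depth and RNA content cannot be told apart in these numbers. A member can therefore be lower in CPM and higher in UMIs per cell, and this is stated where it turned the direction of a called member. A member not called in CPM can also differ in UMIs per cell. FN1 in VECs and THBS1 in SCs did so, higher at P0 in 9 of 9 donors.

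Among the muscle cell types with several donors of at least 10 cells, FN1, THBS2, POSTN and SPARC had their highest mean level in FAPs, TNC and THBS1 in SMMCs, TGFBI in macrophages, and CTHRC1 in VECs and FAPs alike. Cell types were defined by the authors from the same expression values, so these levels are descriptive and carry no test. FN1 ranged in FAPs from 970 to 2414 CPM with a median of 1733 (n = 10), in SMMCs from 407 to 1301 with a median of 764, and in SCs from 4.13 to 142 with a median of 17.2. FAPs and SMMCs overlapped, and every FAP value lay above every SC value. SPARC, a collagen-binding matrix protein, averaged 4614 ± 1256 CPM (SD, n = 10) in FAPs, 3006 ± 761 in SMMCs, 2594 ± 492 in VECs and 1463 ± 520 in SCs. Each of these neighbours in the order overlapped the next, whereas the range of SCs lay above those of all remaining types with several donors. Macrophages were lowest, at 55.3 ± 56.3 CPM.

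TNC, a tenascin associated with tissue remodelling, averaged 162 ± 71.3 CPM in muscle SMMCs (n = 10), from 83.0 to 315. Its next level was that of FAPs, from 0.882 to 38.2 CPM with a median of 4.53, without overlap. THBS1, a large trimeric glycoprotein that can activate latent TGF-β, ranged in SMMCs from 174 to 1975 CPM with a median of 493, in FAPs from 28.5 to 436 with a median of 102, and in SCs from 46.5 to 303 with a median of 93.9. It was the only member for which FAPs exceeded SCs in fewer than 9 of the 10 donors (4 of 10), and the ranges of all 3 types overlapped. THBS2, its close relative, lay between 5.35 and 41.4 CPM in FAPs (median 24.2) and had no UMI in the SCs of any of the 10 donors. A count of 0 in the 2804015 UMIs of muscle SCs allows up to 1.07 CPM.

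POSTN is a fasciclin-domain protein of remodelling connective tissue, and its level varied widely between animals. In muscle FAPs it measured 475 CPM in donor 1, 83.0 in donor 2, 266 in donor 3, 16.0 in donor 4, 233 in donor 5, 91.8 in donor 6, 167 in donor 7, 87.4 in donor 8, 941 in donor 9 and 190 in donor 10. Donors 1 and 9 were highest and donor 4 lowest. TGFBI, a related fasciclin-domain protein induced by TGF-β, ranged in macrophages from 386 to 815 CPM (median 561) and in FAPs from 99.9 to 240 (median 161), without overlap. In SCs it lay between 0 and 6.59 CPM. CTHRC1, a secreted protein of remodelling matrix, was 24.8 ± 11.6 CPM in FAPs and 25.7 ± 12.1 in VECs, which overlapped, and 1.05 ± 1.71 in SCs.

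The rarer cell types were pooled over donors. The 23 tenocytes of the muscle library, from 6 donors, contained SPARC at 14710 CPM (exact Poisson 95% interval 14090 to 15360, which covers counting error only), FN1 at 1564, THBS1 at 874, TGFBI at 423, THBS2 at 261, POSTN at 254, TNC at 233 and CTHRC1 at 106 CPM. Tenocytes are the cells of tendon, and FAP markers in the cells labelled so summed to 23860 CPM against 8660 for tenocyte markers. With too few cells per animal they have no replicate spread. The pooled levels of SPARC, THBS2 and CTHRC1 were above the mean of every type named before, also without any of the 6 donors (12960 to 16160, 202 to 293 and 87.2 to 115 CPM). Donor 5 held 90 of the 124 THBS1 UMIs and 22 of the 33 TNC UMIs. Without it THBS1 was 345 and TNC 112 CPM, below the SMMC means of 600.1 and 162, whereas with it both were above. Donor 10 held 18 of the 36 POSTN UMIs, and POSTN was 140 CPM without it.

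**Figure D1:**
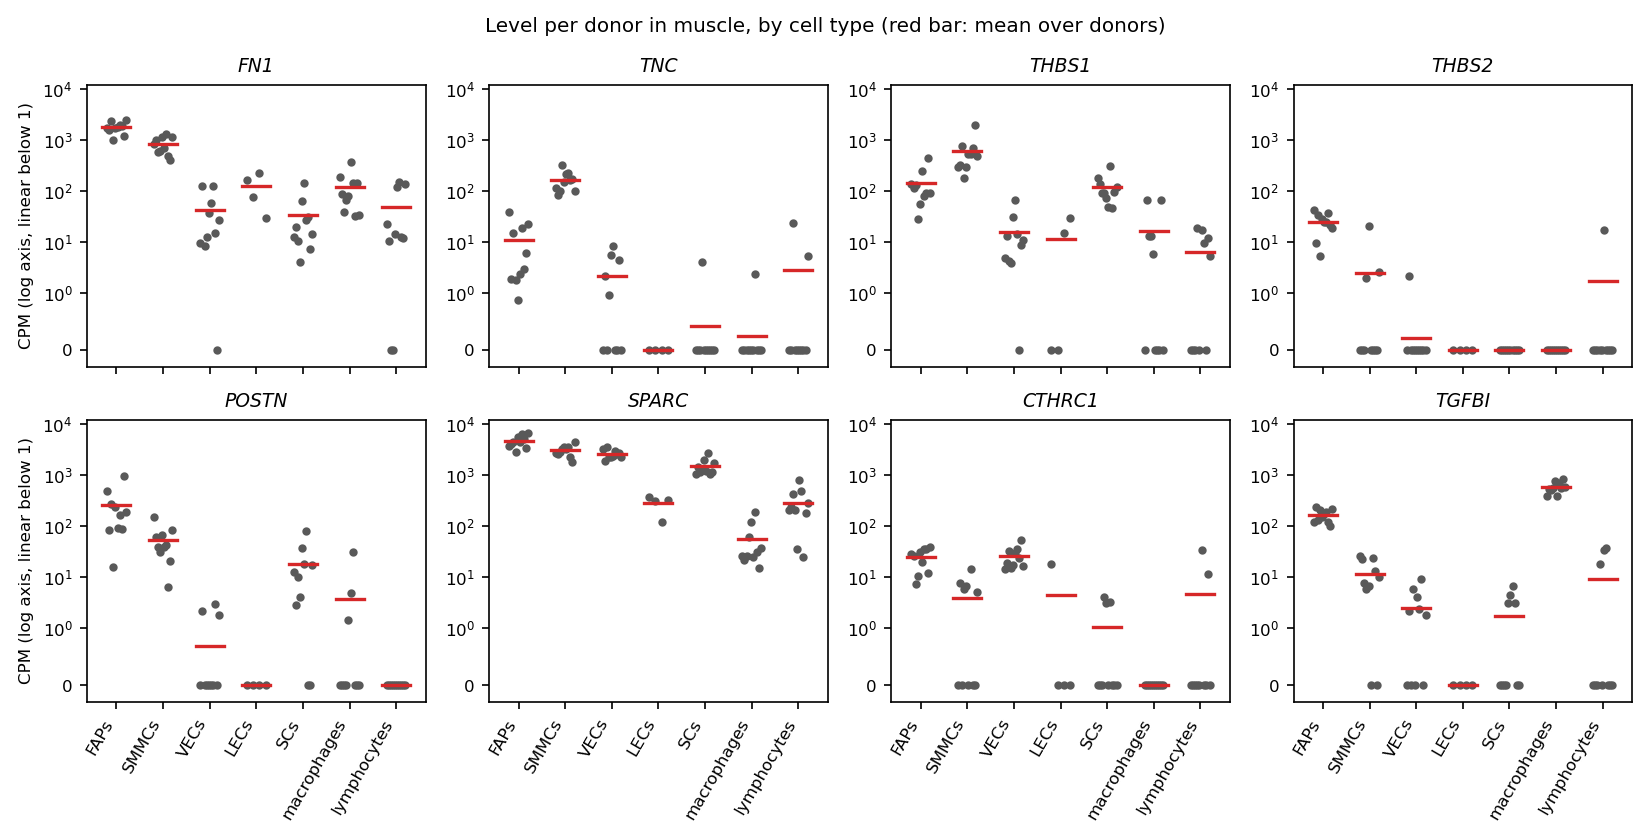
Levels of the 8 transcripts in the 7 muscle cell types with sums from several donors, in CPM on a log axis that is linear below 1 CPM, with 1 point per donor and the mean as a bar. FAPs lie above SCs in 10 of 10 donors for FN1, THBS2, POSTN, SPARC, CTHRC1 and TGFBI. The SC values of THBS2 are at 0 in 10 donors and those of CTHRC1 in 7. A count of 0 there allows 6.66 to 30.7 CPM in a single donor, so the order is not resolved in every animal for these 2. Among the types plotted the means of TNC and THBS1 are highest in SMMCs and that of TGFBI in macrophages.

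How these levels differed between fresh muscle and 72 h of culture was tested within each cell type with edgeR's quasi-likelihood test across all genes. A gene was called where the Benjamini-Hochberg adjusted p was below 0.05 and the absolute log2 fold change exceeded 1. In FAPs, 7 of 8 members were called, 2 higher and 5 lower at P0. Of all 9208 genes tested 43.4% were called, 20.9% higher and 22.5% lower. The members were chosen with earlier results of these data known and were not tested as a list, so no excess over that share is read. The 5 lower members were also lower in mean UMIs per cell, in 9 of 9 donors for FN1, SPARC and TGFBI, 8 of 9 for POSTN and 6 of 9 for THBS2. The falls were smaller on that scale than in CPM. Their log2 ratios were -1.07 for FN1, -0.82 for SPARC, -0.57 for THBS2, -2.58 for POSTN and -3.94 for TGFBI. FN1 was 118 to 288 CPM at P0 (median 230, n = 9) and 970 to 2414 at muscle (median 1733, n = 10). The groups did not overlap and all 9 donors sampled at both stages were lower at P0, a log2 fold change of -2.92 ± 0.18 (SE, edgeR, adjusted p = 4.17e-12). SPARC was 490 to 954 CPM at P0 (median 646) against 2752 to 6653 (median 4385), again without overlap and lower in 9 of 9 donors (-2.64 ± 0.17, adjusted p = 8.24e-12).

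TGFBI had the largest fold change of the 8 members in FAPs. It was 1.63 to 5.81 CPM at P0 (median 2.50) against 99.9 to 240 at muscle (median 161), a log2 fold change of -5.81 ± 0.22 (adjusted p = 6.41e-16), with no overlap. FN1, SPARC and TGFBI were the 3 of 8 members whose FAP groups were separate, a share no higher than the 42.6% of all tested genes with separate groups. POSTN was 4.06 to 21.9 CPM (median 7.94) against 16.0 to 941 (median 178), lower in 9 of 9 donors by -4.40 ± 0.57 (adjusted p = 1.26e-06), with the highest P0 value above the lowest muscle value. THBS2 was 2.70 to 7.24 CPM (median 3.70) against 5.35 to 41.4 (median 24.2) and fell in 8 of 9 donors (-2.40 ± 0.26, adjusted p = 1.75e-08).

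TNC and THBS1, in contrast, rose in these cells. TNC was 16.7 to 88.2 CPM at P0 (median 53.7) and 0.882 to 38.2 at muscle (median 4.53), higher in 9 of 9 donors (2.61 ± 0.48, adjusted p = 6.66e-05). THBS1 was 241 to 739 CPM (median 395) against 28.5 to 436 (median 102), also higher in all 9 donors (1.88 ± 0.38, adjusted p = 0.000183). Both pairs of groups overlapped at their edges. CTHRC1 was 15.4 to 75.6 CPM at P0 and 7.40 to 39.4 at muscle, higher in 5 donors and lower in 4, and was not called (0.57 ± 0.33, adjusted p = 0.123). Tenocyte markers in cells labelled FAPs summed to 476 CPM at muscle (1 of 5 at 0) and 18.2 at P0, myocyte markers to 1010 and 0.991, and FAP markers themselves to 27530 and 3595. The part of other cells in the FAP values was not tested. Together the 8 transcripts made up 0.697 ± 0.156% of FAP UMIs at muscle and 0.146 ± 0.0253% at P0.

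In SCs, 3 members passed the filter on low counts (FN1, THBS1 and SPARC) and 2 were called, against 34.3% of 5221 genes (15.8% higher, 18.5% lower), which is too few members to set beside that share. FN1 moved the opposite way to FAPs. It was 64.5 to 412 CPM at P0 (median 207, n = 9) and 4.13 to 142 at muscle (median 17.2, n = 10), higher in 9 of 9 donors (2.38 ± 0.51, edgeR, adjusted p = 0.000366), with some overlap. SPARC was 565 to 818 CPM against 1049 to 2669, without overlap, and fell in CPM in all 9 donors (-1.17 ± 0.15, adjusted p = 5.20e-07), whereas in UMIs per cell it was higher at P0 in all 9, at a mean of 12.9 against 6.27. Without the low-count filter its log2 fold change was -0.80 and it was no longer called. After thinning every sum to 97693 UMIs, FN1 and SPARC were not both still called in SCs. THBS1 was not called (0.54 ± 0.36, adjusted p = 0.183).

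Of the 5 untested members, TNC, THBS2, CTHRC1 and TGFBI had between 0 and 6 UMIs in muscle SCs and POSTN had 56. TNC had 1 UMI at muscle and 483 at P0, a 31.2-fold ratio of summed levels with a counting interval of 5.58 to 1240. CTHRC1 had 3 UMIs and 731 (15.7-fold, 5.37 to 76.5), and THBS2 had 0 and 266. The lower limit of the counting interval for THBS2 was 4.63-fold, and the ratio to a floor of 3 counts over the group was 5.73-fold. These rest on sums over all donors. Of the 10 muscle donors, 9 were at 0 for TNC, 7 for CTHRC1 and 10 for THBS2, where a count of 0 allows up to between 6.66 and 30.7 CPM in a single donor. At P0 the donors held 4.72 to 32.6 CPM of TNC, 5.25 to 28.4 of CTHRC1 and 0.478 to 11.6 of THBS2, and 8, 9 and 9 of the 9 donors lay below the highest of these limits, so no order within donors is read from them. Among the 3 tested members only SPARC had separate SC groups, against 34.5% of all tested genes. POSTN averaged 18.0 ± 24.1 CPM at muscle and 5.97 ± 11.3 at P0, and TGFBI had 6 and 38 UMIs, a ratio of 0.409 (0.172 to 1.18). Summed FAP markers in cells labelled SCs were 296 CPM at muscle and 1478 at P0, and those of FAPs at P0 were 3595. Myocyte markers in the SCs summed to 614 CPM at muscle and 0.738 at P0, and tenocyte markers to 33.9 and 12.7. The part of other cells in the SC values was not tested.

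The change from muscle to P0 was itself compared between FAPs and SCs, with both types in 1 model. It differed for 5 of 8 members, each with a lower value in FAPs, against 20.0% of all 8751 genes (7.60% higher, 12.4% lower). For FN1 the FAP change minus the SC change was -5.51 (edgeR, adjusted p = 6.76e-11) and for SPARC -1.70 (adjusted p = 3.65e-07). TGFBI (-4.72, adjusted p = 1.16e-06), CTHRC1 (-3.44, adjusted p = 0.0255) and THBS2 (-10.23, adjusted p = 1.86e-05) were also called, but rest on 6, 3 and 0 UMIs in muscle SCs, so their sizes depend on the model's prior count and are not bounds. These members also did not pass the filter on low counts in the SC fit, so the 5 of 8 is not read against the share of all genes. After thinning every sum to the same UMIs, 2 of the 5 members, FN1 and SPARC, were still called. TGFBI was not (-4.89, adjusted p = 0.104), and CTHRC1 and THBS2 no longer passed the filter on low counts.

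FAPs and SCs were apart in muscle for FN1 and SPARC and overlapped at P0. FN1 was higher in FAPs than in SCs of the same animal in 10 of 10 donors at muscle and in 5 of 9 at P0. SPARC went from 10 of 10 donors to 4 of 9, with P0 means of 685 and 677 CPM. THBS2 went from 10 of 10, with every muscle SC sum at 0, to 3 of 9. TNC, THBS1 and CTHRC1 were each higher in FAPs in 9 of 9 donors at P0. These counts describe labelled types and were not tested.

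**Figure D2:**
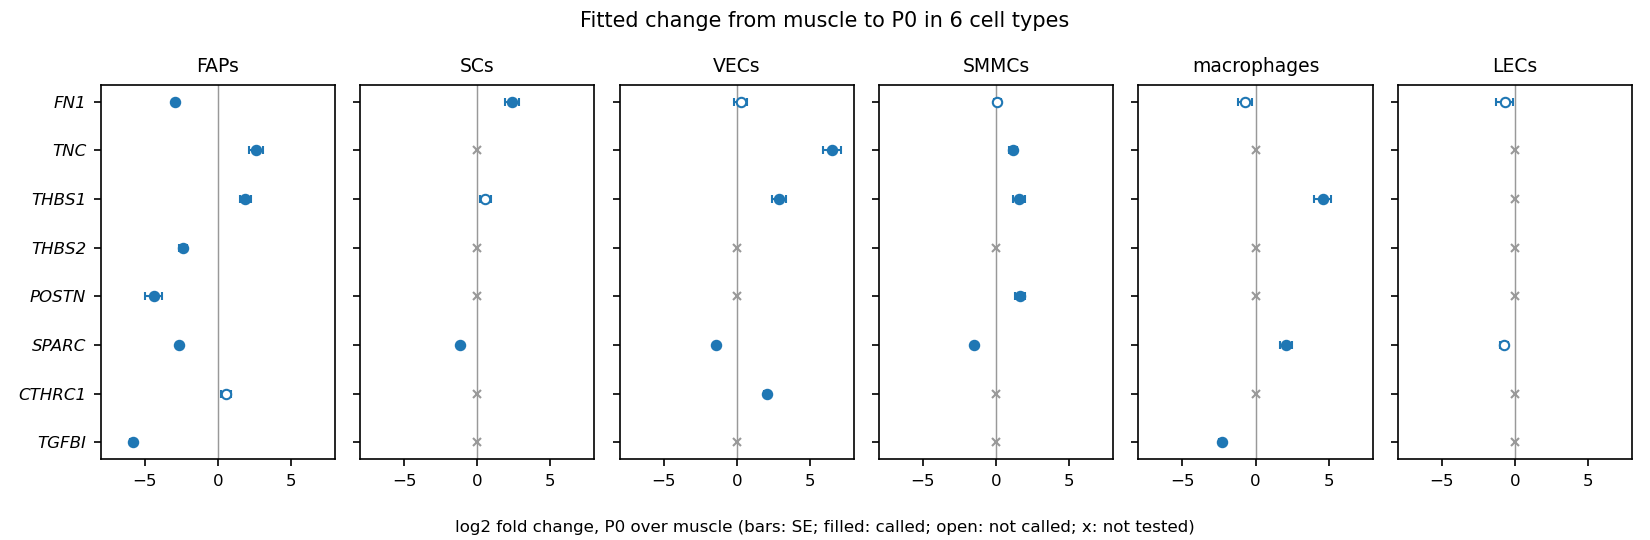
Log2 fold changes from muscle to P0 within each cell type with bars of 1 SE, filled points for called members, open points for members not called and crosses for those not tested. SPARC is below 0 in FAPs, SCs, VECs and SMMCs and above 0 in macrophages. In UMIs per cell it is higher at P0 in SCs, VECs and SMMCs. FN1 is at -2.92 in FAPs and 2.38 in SCs. TNC reaches 6.51 in VECs, on 7 UMIs at muscle.

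In VECs, 5 members were tested and 4 were called, 3 higher and 1 lower, against 35.1% of 5896 genes (15.6% higher, 19.6% lower). TNC was 72.4 to 311 CPM at P0 (median 143, n = 9) and 0 to 8.35 at muscle (median 0.480, n = 10), with a log2 fold change of 6.51 ± 0.64 (edgeR, adjusted p = 3.16e-08). The muscle value rests on 7 UMIs against 2015 at P0, a 96.2-fold ratio of summed levels with a counting interval of 46.6 to 240. TNC passed the filter on low counts only through its P0 sums, so a rise was the only change open to it. THBS1 also needed its P0 sums to pass. The calls of both, and the separate groups of TNC, are therefore not read against the shares of all genes. Groups were separate for 3 of the 5 tested members, against 33.3% of genes. They were TNC, CTHRC1, at 64.5 to 162 CPM against 14.5 to 52.4 (2.07 ± 0.21, adjusted p = 1.68e-09), and SPARC, at 698 to 1326 against 1913 to 3461 (-1.39 ± 0.12, adjusted p = 2.86e-11). In UMIs per cell SPARC was higher at P0 in 9 of 9 donors, at a mean of 14.5 against 9.21. THBS1 rose by 2.88 ± 0.49 (adjusted p = 3.37e-05), from a median of 9.78 to 102 CPM, with overlap. FN1 was not called (0.27 ± 0.45, adjusted p = 0.596). FAP markers in cells labelled VECs summed to 347 CPM at muscle and 327 at P0, myocyte markers to 519 and 1.47, and tenocyte markers to 92.4 and 9.07, and the part of other cells in the VEC values was not tested. THBS2 and POSTN had 1 and 3 UMIs at muscle against 24 and 32 at P0, and TGFBI had 13 against 5.

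The change in FAPs differed from that in VECs for 6 of the 7 members tested, each with a lower value in FAPs, against 25.6% of 8613 genes (13.8% higher, 11.8% lower). For FN1 the difference was -3.26 (adjusted p = 2.70e-07), for TNC -4.05 (adjusted p = 0.00407), for SPARC -1.32 (adjusted p = 1.79e-06) and for CTHRC1 -1.56 (adjusted p = 0.00344), by edgeR. TNC, POSTN (-6.27, adjusted p = 0.0124) and TGFBI (-2.97, adjusted p = 0.0385) rest on 7, 3 and 13 UMIs in muscle VECs, so the sizes of these differences are uncertain, and TGFBI was not called without the filter or after thinning. POSTN and TGFBI also did not pass the filter on low counts in the VEC fit, so the 6 of 7 is not read against the share of all genes. THBS1, which rose in both types, was not called (-1.06, adjusted p = 0.219).

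In SMMCs, 5 members were tested and 4 called, 3 higher and 1 lower, against 36.4% of 3454 genes (15.1% higher, 21.3% lower). POSTN rose here, from 6.52 to 153 CPM at muscle (median 40.6, n = 10) to 99.1 to 307 at P0 (median 137, n = 7), in 7 of 7 donors (1.65 ± 0.34, edgeR, adjusted p = 0.000229). TNC rose from a median of 156 to 340 CPM (1.17 ± 0.27, adjusted p = 0.000971) and THBS1 from 493 to 1489 (1.57 ± 0.42, adjusted p = 0.00323). For THBS1 donor 9 went the other way, from the highest muscle value of 1975 CPM to a lower one at P0. All 3 pairs of groups overlapped. SPARC fell without overlap, from 1761 to 4442 CPM at muscle to 908 to 1504 at P0 (-1.52 ± 0.15, adjusted p = 1.93e-08), whereas in UMIs per cell it was higher at P0 in 7 of 7 donors (mean 15.9 against 10.7). FN1 averaged 815 ± 309 CPM at muscle and 883 ± 268 at P0, and was not called (0.09 ± 0.23, adjusted p = 0.755 by edgeR). In UMIs per cell FN1 was higher at P0 in 7 of 7 donors, at a mean of 13.4 against 2.88. CTHRC1, untested, had 10 UMIs at muscle and 466 at P0 (16.5-fold, 8.90 to 34.7). Of the 10 muscle donors 5 were at 0, which allows up to 38.3 CPM in the shallowest, and 6 of the 7 P0 donors lay above that. Of the 5 tested members SPARC alone had separate groups, against 30.5% of genes. Tenocyte markers in cells labelled SMMCs summed to 964 CPM at muscle (1 of 5 at 0) and 112 at P0, myocyte markers to 249 and 1.73, and FAP markers to 240 and 683. The part of other cells in the SMMC values, the lower SPARC included, was not tested.

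In macrophages, 4 members were tested and 3 called, 2 higher and 1 lower, against 34.6% of 2896 genes (14.3% higher, 20.4% lower). TGFBI was 61.7 to 199 CPM at P0 (median 112, n = 7) and 386 to 815 at muscle (median 561, n = 10), lower in 7 of 7 donors without overlap (-2.32 ± 0.20, edgeR, adjusted p = 2.14e-10). THBS1 was 130 to 483 CPM against 0 to 66.7 (4.58 ± 0.58, adjusted p = 3.57e-06), and SPARC 204 to 402 against 14.8 to 188 (2.08 ± 0.39, adjusted p = 0.000189), both higher in 7 of 7 donors without overlap. TNC had 1 UMI at muscle and 44 at P0, and CTHRC1 had 0 and 19. The lower limit of the counting interval for CTHRC1 was 10.8-fold, and the ratio to the floor of 3 counts was 14.6-fold. Of the 4 tested members 3 had separate groups, against 28.1% of genes. THBS1 and SPARC passed the filter on low counts only with their P0 sums, and THBS1 rests on 30 UMIs at muscle, with 5 of 10 donors at 0. Their higher calls and separate groups are therefore not read against the shares of all genes. FAP markers summed to 199 CPM in macrophages at muscle and 1364 at P0, myocyte markers to 347 and 1.496, and tenocyte markers to 38.7 and 9.73, and the part of other cells in these values was not tested.

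In LECs, FN1 and SPARC were tested in 7 donors at P0 and 4 at muscle, and neither was called, against 29.6% of 3034 genes (14.8% in each direction). FN1 was 25.4 to 158 CPM at P0 and 160, 76.8, 228 and 29.7 CPM in donors 4, 7, 8 and 10 at muscle (-0.69 ± 0.58, edgeR, adjusted p = 0.373). With donor as a block, which rests on the 3 donors with both stages, it was called (-1.73, adjusted p = 0.00941). Of these, donors 4 and 8 were lower at P0 (25.4 and 48.7 CPM), and donor 7 was not (80.3 CPM). SPARC was 111 to 280 CPM against 374, 307, 121.5 and 327 in the same donors (-0.76 ± 0.27, adjusted p = 0.0264), under the fold threshold, and was called at -1.04 after thinning. Neither had separate groups, against 30.5% of genes, and POSTN and TGFBI had no UMI in these sums at either stage. FAP markers in cells labelled LECs summed to 58.8 CPM at muscle and 443.5 at P0, and myocyte markers to 452 and 0.541, and their part was not tested.

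Sorted FAP cultures were followed in donors 4, 7 and 8, and their P0 values are those of the labelled FAPs of the same animals before the sort, so that sort, coating, passage and library changed together. From P0 to P2, 7 of 8 members were called, 6 higher and POSTN lower, against 23.1% of 12025 genes (13.1% higher, 10.0% lower). The same 7 had separate groups, as did 64.6% of all genes, in a comparison of 3 donors with 3. In donors 4, 7 and 8 respectively, FN1 was 230, 288 and 240 CPM at P0 and 1506, 2312 and 3002 at P2 (3.25 ± 0.46, edgeR, adjusted p = 0.000219). SPARC was 668, 753 and 620 CPM and then 2228, 3822 and 4195 (2.41 ± 0.35, adjusted p = 0.000225). Both were higher at P2 in each donor, and the stages did not overlap.

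THBS1 was 739, 694 and 319 CPM at P0 and 2350, 2198 and 1527 at P2 (1.86 ± 0.28, adjusted p = 0.000322). THBS2 was 6.30, 3.08 and 4.09 CPM and then 31.9, 19.3 and 14.5 (2.38 ± 0.32, adjusted p = 0.000148). CTHRC1 was 75.6, 30.4 and 29.2 CPM and then 128, 112 and 137 (1.56 ± 0.31, adjusted p = 0.00172). The thrombospondins and CTHRC1 thus rose in all 3 donors, with donor 4 highest for each at P0. TNC was 88.2, 45.9 and 44.8 CPM and then 641, 258 and 123 (2.57 ± 0.87, adjusted p = 0.0276), a call lost without donor 7 or donor 8 and without the low-count filter. POSTN had 255 UMIs over the 3 donors at P0 and 20 at P2, a ratio of 0.0496 (counting interval 0.0298 to 0.0782, adjusted p = 3.86e-05 by edgeR). TGFBI was 5.81, 2.09 and 2.23 CPM and then 2.17, 1.12 and 0.390, not called as such (-1.34 ± 0.80, adjusted p = 0.177) and called with donor as a block (-1.46, adjusted p = 0.0447).

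Fewer members were called at the later steps. From P2 to P5, 1 member was called higher and 1 lower, against 3.72% of genes (1.06% higher, 2.65% lower). Groups were separate for 3 of 8 members and 35.9% of all genes. THBS2 reached 56.2, 52.1 and 38.1 CPM in donors 4, 7 and 8 at P5 (1.28 ± 0.28, edgeR, adjusted p = 0.0193), a call lost without donor 7 or 8. POSTN went from 20 UMIs to 1 (ratio 0.0412, 0.000994 to 0.258), and its call was lost without donor 4 or 7. SPARC reached 5989, 7768 and 6820 CPM, which missed the threshold (1.12 ± 0.33, adjusted p = 0.0512) and passed it with donor as a block (1.17), with DESeq2 (1.09) and without cells of shared barcodes (1.13, adjusted p = 0.0487). TNC was 1647, 306 and 467 CPM (1.38 ± 0.83, adjusted p = 0.294) and was called with the block (1.33), so that the block gave 4 called members in place of 2. Without donor 4 or 8 the comparison called 1 member and without donor 7 none (0). FN1 was 2390, 4096 and 3605 CPM and was not called (0.68 ± 0.43, adjusted p = 0.314). THBS1 at 2968, 2642 and 2203 CPM and CTHRC1 at 118, 121 and 111 were not called either (0.49 ± 0.27, adjusted p = 0.261, and 0.01 ± 0.30, adjusted p = 0.986).

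From P5 to P8, 1 member was called, higher, against 1.26% of genes (0.865% higher, 0.399% lower), and groups were separate for 3 of 8 members and 31.3% of genes. The called member was POSTN, with 1 UMI at P5 and 8 at P8 (42.0-fold, counting interval 5.63 to 1860), of which donor 8 held 6, and the call was lost without any of the 3 donors. THBS2 was 77.3, 98.1 and 101 CPM in donors 4, 7 and 8, above P5 in each, but was not called (0.80 ± 0.28, adjusted p = 0.107). SPARC was 2225, 5546 and 4874 CPM, below P5 in each, and was not called either (-0.81 ± 0.33, adjusted p = 0.152). Over all cells labelled FAPs, tenocyte markers summed to 18.2, 200.5, 293 and 201.7 CPM at P0, P2, P5 and P8. Myocyte markers summed to 0.991, 15.9, 31.4 and 45.9 CPM, and FAP markers to 3595, 13060, 13890 and 8990. The part of other cells in the FAP culture changes was not tested.

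**Figure D3:**
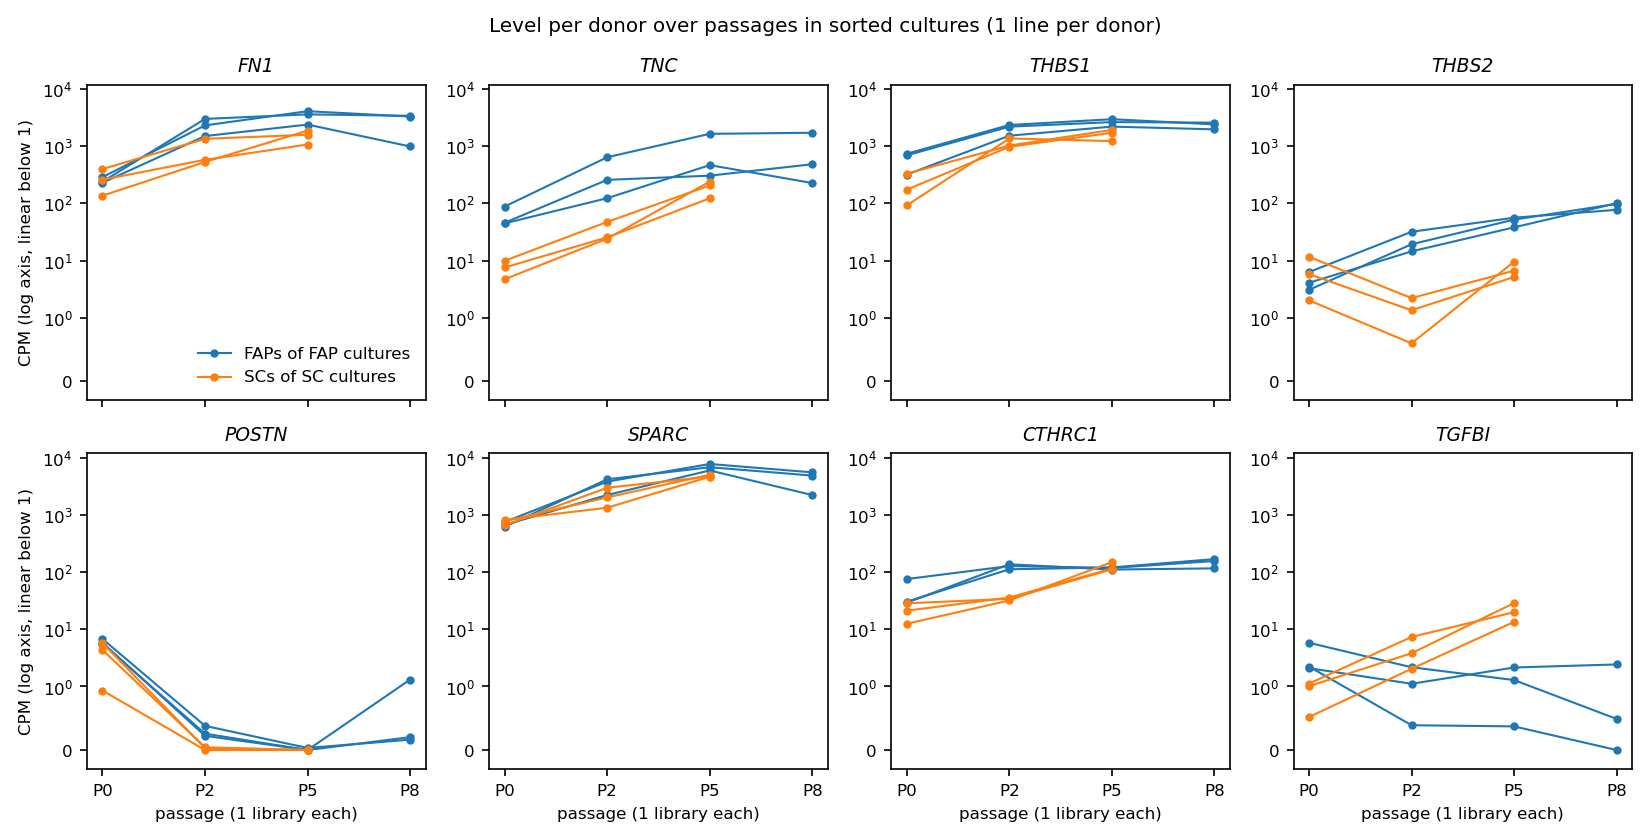
Levels in CPM on a log axis (linear below 1 CPM) for FAPs of the sorted FAP cultures (donors 4, 7 and 8) and SCs of the sorted SC cultures (donors 5, 6 and 10) along the passages, with 1 line per donor. FN1, THBS1 and SPARC climb between P0 and P2 in all 6 donors, TGFBI climbs in the SCs of donors 5, 6 and 10 up to P5, and POSTN falls to between 0 and 10 UMIs per donor from P2 on.

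Sorted SC cultures were compared in donors 5, 6 and 10. From P0 to P2, 7 of 8 members were called, 5 higher and 2 lower, against 9.98% of 12366 genes (5.91% higher, 4.07% lower), and groups were separate for 7 members and 41.8% of genes. In donors 5, 6 and 10 respectively, THBS1 was 92.4, 332 and 174 CPM at P0 and 1367, 1026 and 979 at P2 (2.49 ± 0.42, edgeR, adjusted p = 0.00536). SPARC was 777, 658 and 818 CPM and then 2022, 2986 and 1335 (1.49 ± 0.25, adjusted p = 0.00502). FN1 was 137, 399 and 259 CPM and then 530, 1346 and 579 (1.62 ± 0.47, adjusted p = 0.0425). The FN1 call was lost without any of the 3 donors and without the low-count filter, that of THBS1 without donor 10 and that of SPARC without donor 5. Called members numbered 4 without donor 5 or 6 and 3 without donor 10.

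TNC was 4.72, 7.58 and 9.93 CPM at P0 and 24.2, 25.5 and 47.5 at P2 (2.07 ± 0.40, adjusted p = 0.00853). TGFBI was 1.01, 0.519 and 1.12 CPM and then 3.81, 2.04 and 7.34 (2.45 ± 0.69, adjusted p = 0.0353), from 14 UMIs in all at P0, and its call was lost without any of the 3 donors. THBS2 went the other way to the FAP cultures, at 2.02, 11.6 and 5.81 CPM and then 0.598, 2.21 and 1.36 (-2.36 ± 0.59, adjusted p = 0.0228), a call lost without donor 6 or 10. Whether the FAP and SC culture changes differ was not tested, since their fits were separate. POSTN had 64 UMIs at P0 and 2 at P2 (ratio 0.00644, 0.000763 to 0.0242). CTHRC1 was 12.5, 28.5 and 21.2 CPM and then 32.0, 34.1 and 35.9, under both thresholds (0.66 ± 0.23, adjusted p = 0.0698).

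From P2 to P5, 5 members were called in the SC cultures, all higher, against 3.71% of genes (1.25% higher, 2.47% lower), and groups were separate for 5 members and 33.4% of genes. CTHRC1 reached 149, 112 and 115 CPM in donors 5, 6 and 10 (1.94 ± 0.22, edgeR, adjusted p = 0.00178) and TNC 240, 123 and 207 (2.61 ± 0.35, adjusted p = 0.00399). TGFBI reached 28.8, 13.5 and 19.9 CPM (2.28 ± 0.45, adjusted p = 0.0165), THBS2 9.55, 6.67 and 5.17 (2.43 ± 0.57, adjusted p = 0.0303) and SPARC 5052, 4682 and 4655 (1.24 ± 0.25, adjusted p = 0.0179). Each of the 5 rose in all 3 donors. FN1 at 1877, 1589 and 1071 CPM (0.95 ± 0.46, adjusted p = 0.235) and THBS1 at 1229, 1932 and 1718 (0.59 ± 0.40, adjusted p = 0.387) were not called, and POSTN had no UMI in these SCs at P5. Over all cells labelled SCs, myocyte markers summed to 0.738, 587 and 1276 CPM at P0, P2 and P5, FAP markers to 1478, 2251 and 2513, and SC markers to 163, 593 and 700, and their part in the SC culture changes was not tested. The number of called members was 1 without donor 5, 5 without donor 6 and 0 without donor 10, where the fit called 9, 418 and 0 of all genes.

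Across all cultures, labelled FAPs and SCs of the same donor were set side by side. TGFBI was higher in SCs in 8 of 8 donors at P2, 7 of 7 at P5 and 4 of 4 at P8, with means of 7.17 against 1.27 CPM, 12.9 against 3.00 and 13.4 against 3.19. At muscle it had been higher in FAPs in 10 of 10 donors. In culture the order rests on few TGFBI UMIs in some donors and is not resolved there. At P2 the FAPs of donors 5 and 10 held 1 and 0 UMIs. The SCs of donor 4 at P5 held 1, and those of donors 6 and 9 at P8 held 2 each. TNC was higher in FAPs in 7 of 8, 6 of 7 and 4 of 4 donors. At P2, P5 and P8, SPARC was higher in FAPs in 5 of 8, 4 of 7 and 2 of 4 donors, and FN1 in 7 of 8, 6 of 7 and 3 of 4. The P8 means of SPARC were 2244 CPM in FAPs and 2294 in SCs. The members together made up 0.724, 0.989 and 0.766% of FAP UMIs at P2, P5 and P8 and 0.477, 0.600 and 0.550% of SC UMIs, against 0.146 and 0.112% at P0.

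**Figure D4:**
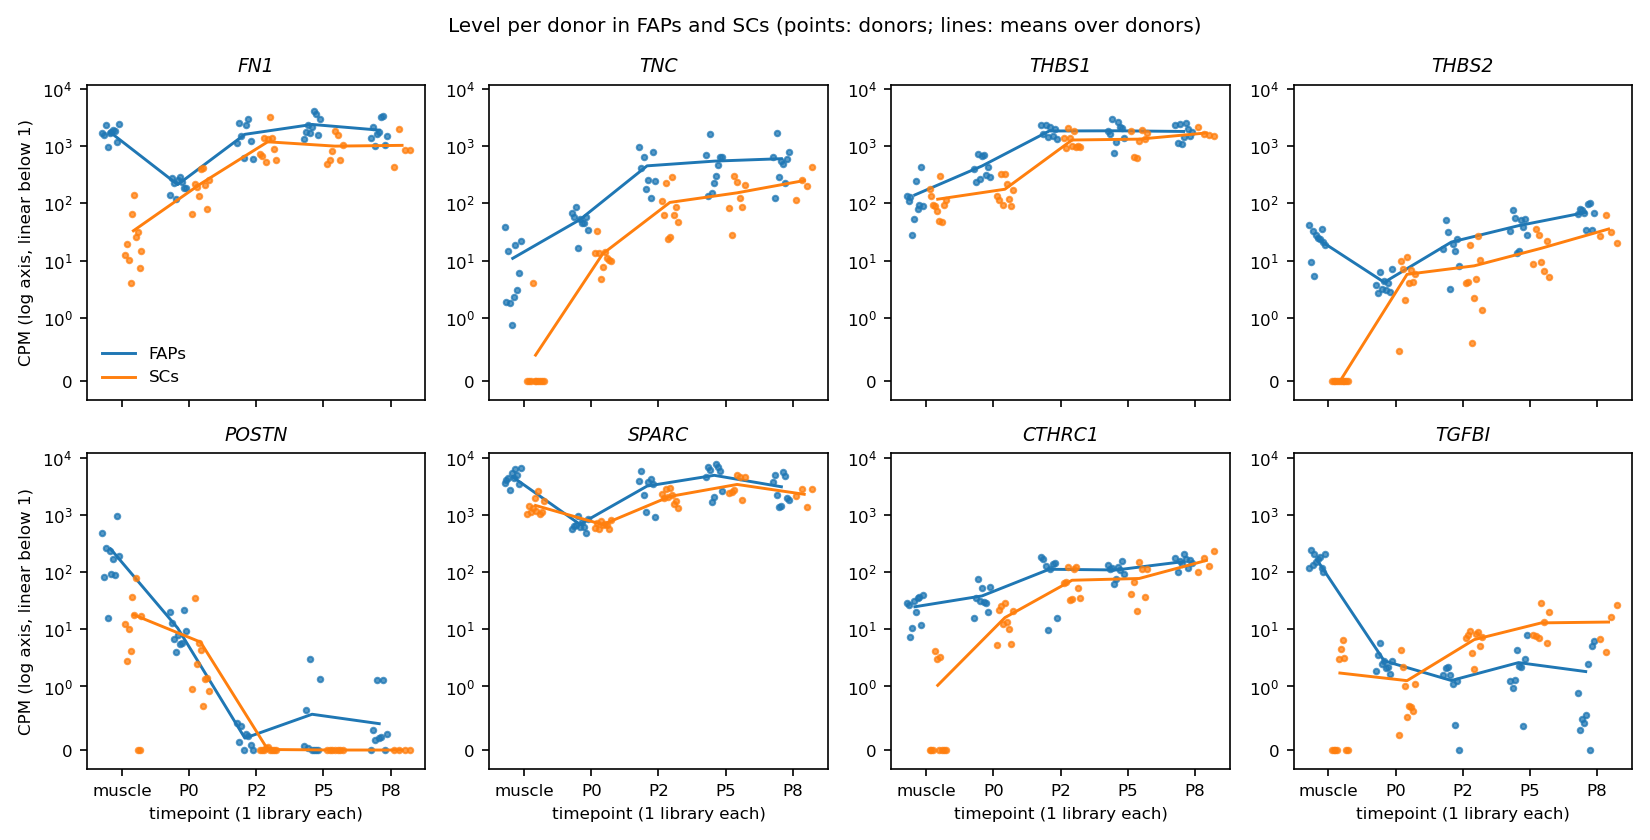
Levels of each member in FAPs and SCs at the 5 stages, in CPM on a log axis that is linear below 1 CPM, with 1 point per donor and lines through the means. FN1 in FAPs dips from a mean of 1735 CPM at muscle to 213 at P0, and SPARC from 4614 to 685. From P2 on the mean of TGFBI is higher in SCs than in FAPs, on few UMIs in some donors.

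Between kinds of culture, FAPs at P2 were compared in the 3 FAP cultures on collagen I and the 3 unsorted cultures on fibronectin, which are different donors. Of 7 members tested none was called by edgeR, against 0.0170% of 11786 genes. CTHRC1 was 128, 112 and 137 CPM in donors 4, 7 and 8 and 182, 170 and 142 in donors 1, 2 and 9 (-0.47 ± 0.13, unadjusted p = 0.00807 and adjusted p = 0.355 in edgeR's fit). TNC was 641, 258 and 123 CPM against 982, 423 and 778 (-1.19 ± 0.57, adjusted p = 0.566). FN1 (0.40 ± 0.41) and SPARC (-0.45 ± 0.32) were not called either. The 2 called genes, PRSS2 (-6.38) and ENSBTAG00000011758 (-3.53), are no members and were looked up after the result was known. In all, 1159 genes had an unadjusted p below 0.05, and DESeq2 called 77.

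Cells labelled FAPs also occurred in the SC cultures. At P2, with 19 cells in donor 5 and 12 in donor 10 (the 7 cells of donor 6 were too few), they held CTHRC1 at 9.60 and 16.0 CPM, FN1 at 617 and 598, and SPARC at 1124 and 910, from 6 CTHRC1 UMIs in each. All were below the 6 donors of the other cultures. The 7 cells of donor 6 held CTHRC1 at 64.6 CPM and FN1 at 2204, and this FN1 level lay within the range of those 6 donors (1128 to 3002). At P5, with 593, 31 and 70 such cells in donors 5, 6 and 10, CTHRC1 was 60.9, 75.6 and 90.9 CPM. These lay below every FAP culture (111 to 121) and every unsorted culture (115 to 157). FN1 was then 1677, 2125 and 3051 CPM, against 2390 to 4096 in the FAP cultures and 1322 to 1768 in the unsorted ones. By P8 CTHRC1 measured 141, 209 and 146 CPM in donors 5, 6 and 10, within or above the range of the FAP cultures (116 to 169). SPARC there was 1384, 1406 and 1831 CPM, still below every FAP culture (2225 to 5546) and every unsorted culture (2008 to 4934). FN1 was 1618, 1754 and 1539 CPM, within the range of the FAP cultures (991 to 3401).

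Per-cell detection was compared after thinning each cell to 1000 UMIs. An FN1 UMI was found in 69.3 ± 10.9% of muscle FAPs (92.9% before thinning, median depth 6213 UMIs), in 18.0 ± 5.12% at P0 (81.3%, 24188 UMIs) and in 64.9 ± 18.6% at P2 (99.96%, 29540 UMIs). The thinned share thus followed the CPM levels, and the unthinned one less so. In muscle lymphocytes, which should lack FN1, the share was 2.18% (5.77% before thinning, median depth 4407). Their median FN1 level was 13.4 CPM, near those of muscle SCs (17.2) and VECs (21.1), and the ranges overlapped. The muscle FN1 of SCs and VECs is thus not resolved from that of a type that should lack it. TGFBI was found in 40.3 ± 10.5% of muscle macrophages (78.3%) and 13.6 ± 4.98% of FAPs (51.3%), against 0.667% of lymphocytes (2.00%). At P0, TNC was found in 29.3 ± 15.3% of SMMCs (72.7%, 12669 UMIs) and 13.6 ± 9.59% of VECs (47.0%, 12856 UMIs), and in none of 168 LECs after thinning (9.39% before, 9436 UMIs).

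POSTN was found in 11.6 ± 11.9% of thinned muscle FAPs (20.5% before thinning) and in no lymphocyte. In the 4 donors with enough thinned UMIs to measure it, the 10% of FAPs with most POSTN held 79.1 ± 24.6% of its UMIs. The same share was 68.6 ± 8.01% for TGFBI (n = 5), 39.2 ± 6.50% for FN1 and 25.8 ± 2.70% for SPARC (n = 10 each). A gene with fewer UMIs is more concentrated by counting alone, so these shares are not ranked.

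Other matricellular genes were counted from a list of 30, of which 28 were in the matrices. In FAPs, 18 were tested between muscle and P0 and 14 fell with none higher, at a median log2 fold change of -4.56 against 0.03 over all genes, of which 22.5% fell and 20.9% rose. The furthest were MGP, an inhibitor of mineralisation, from a mean of 15860 to 6.18 CPM (-11.20), the tenascin TNXB from 929 to 1.44 (-9.25) and the SPARC relative SPARCL1 from 1628 to 7.21 (-7.69). In SCs, 10 were tested, with 4 higher and 4 lower, against 15.8% and 18.5% of all genes. ECM1 (5.13), CCDC80 (2.99) and SPP1 (1.64), or osteopontin, rose, and MGP (-7.80), SPARCL1 (-6.77) and IGFBP7 (-5.30) fell. Between P0 and P2, 15 of 22 rose and 1 fell in the FAP cultures (13.1% and 10.0% of all genes), and 8 of 20 rose and 4 fell in the SC cultures (5.91% and 4.07%). No list was tested as a list.

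Receptors for these proteins were counted from a list of 18. In FAPs, 12 were tested at P0 against muscle, with 2 higher and 4 lower, against 20.9% and 22.5% of all genes. The syndecans SDC1 (4.21) and SDC4 (2.49), cell-surface proteoglycans, rose. EGFR (-3.76), the integrin subunit ITGB5 (-3.01) and the endocytic receptor LRP1 (-1.85) were the furthest that fell. In SCs, 2 of 8 rose, ITGA5 (1.52), the α subunit of the main fibronectin receptor, and CD47 (1.09), which binds thrombospondin 1, and none fell, against 15.8% of all genes higher and 18.5% lower. The study names ITGA5 as a marker of FAPs, and FAP markers in these SCs summed to 296 CPM at muscle and 1478 at P0, whose part in the higher ITGA5 was not tested. In the FAP cultures from P0 to P2, 7 of 16 rose and 1 fell, against 13.1% and 10.0% of all genes. In the SC cultures 1 of 17 rose and 3 fell, against 5.91% and 4.07%.

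Genes with the most similar pattern to each member were taken over 20 profiles of type and stage, each pooled over donors, among 11057 genes, by Pearson's r of log2 levels. The profiles share libraries and depth, and the values are descriptive. FN1 was most like COL1A2 (0.928), HSPB6 (0.921) and COL1A1 (0.915), and THBS2 most like LOX (0.906), COL1A1 (0.905) and LUM (0.899). TNC was most like IGF2BP2 (0.950), THBS1 (0.896) and PRRX1 (0.893), and THBS1 most like PRRX1 (0.931), REXO2 (0.930) and ECHS1 (0.926). CTHRC1 was most like RABAC1 (0.920), IGF2BP2 (0.912) and BACE2 (0.901), SPARC most like LAMB2 (0.876), GOLGA2 (0.873) and MIPOL1 (0.871). POSTN (POP5, HIGD1B and COX11, 0.825 to 0.833) and TGFBI (TIAM1, CYBC1 and FUCA2, 0.838 to 0.849) had the lowest top values. Of the members themselves, only THBS1 appeared among the 3 nearest genes of another, TNC.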

How the data were processed

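Raw UMI counts per gene and cell were deposited by the authors as 5 matrices, made with Cell Ranger 6.0.1 on genome ARS-UCD1.2 per the submitters' processing notes. The labels list a second sequencing run at P0, P2 and P5, with 1 matrix per stage. Whether that matrix combines both runs is not given in the sources used here, and each stage was treated as 1 library. Donor (demuxlet singlets) and cell type came from the authors' cell table, of which 12 columns were not used, and no further doublet removal was done. The P0 sample label also names sorted types, and was treated as unsorted, as the design text states. The members and gene lists were chosen with earlier results of these data known.

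UMIs were summed per donor, type and stage (at least 10 cells, or 30 as an alternative), filtered with filterByExpr, and tested with edgeR 4.0.16 in R 4.3.3 (TMM, quasi-likelihood, Benjamini-Hochberg adjustment over all genes tested). SE is the absolute log2 fold change divided by the square root of the F statistic. Each cell type was fitted on its own between muscle and P0. The FAP and SC cultures were each fitted over their passages, and differences between types came from an interaction term. The methods of the study compared cells and not donors, so donor sums were used. Donors are separate animals, and p-values measure the spread between them, with each stage in 1 library. The same donor number is the same animal at every stage. Deviations of same-donor sums correlated at 0.157 to 0.662 in the FAP cultures (18 pairs) and 0.102 to 0.473 in the SC cultures (9 pairs), and at medians of 0.0113 to 0.0773 between muscle and P0. Donor was added as a block as an alternative.

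Named genes were all 8 members in every comparison. In FAPs and SCs at P0, up to 3 called genes per direction with the largest change in each other list were added. The 3 genes most like each member were named too (types of at least 50 pooled cells, genes with at least 10 CPM in at least 1 profile). Cells were thinned to 1000 UMIs for shares. Libraries held 20977722 to 252316585 UMIs, and intervals and floors cover counting error only. Other alternatives were DESeq2 1.42.0, no low-count filter, sums thinned to the smallest, each donor left out in turn (in the FAP and SC cultures, FAP against unsorted cultures and LECs, where a group holds 5 donors or fewer) and, chosen after seeing the data, cells with shared barcodes left out and levels as UMIs per cell, with no test. Some of the fits were also run on simulated sums, and no result given here rests on those runs. Python 3.11.15, numpy 2.4.6, pandas 2.3.3, scipy 1.17.1 and matplotlib 3.10.9 were used. Sequences of the members were not used here.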

Additional observations from a re-analysis of the deposited data

Results flagged for a closer look

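In 14 of 101 groups of 4 to 10 donors with a mean of at least 10 CPM, 1 donor lay further from the others than Dixon's 95% limit allows. Chance gives about 1 in 20 such groups where groups are independent and normally spread. Here the groups share donors and all 14 flagged values are the highest of their group, so no excess over chance is read. In SCs these were FN1 at muscle in donor 6 (142 CPM, next 64.2) and at P2 in donor 7 (3232, next 1390), TNC at P0 in donor 2 (32.6, next 14.1), and at muscle in donor 7 both THBS1 (303, next 182) and POSTN (79.1, next 36.7). In FAPs they were TNC in donor 4 at P5 (1647, next 695) and P8 (1719, next 785), and POSTN at muscle in donor 9 (941, next 475). In SMMCs they were THBS1 at muscle in donor 9 (1975, next 746) and at P0 in donor 8 (3349, next 1932), POSTN at muscle in donor 1 (153, next 82.0) and SPARC at P0 in donor 2 (1504, next 1114). The remaining ones were FN1 in muscle macrophages (365, next 185) and THBS1 in muscle VECs (66.8, next 31.1), both in donor 6.

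The change from muscle to P0 differed between cell types by the interaction test for 5 members against SCs and 6 against VECs. FAPs minus SCs gave -5.51 for FN1, -10.23 for THBS2, -1.70 for SPARC, -3.44 for CTHRC1 and -4.72 for TGFBI on the log2 scale. The values of THBS2, CTHRC1 and TGFBI rest on 0, 3 and 6 UMIs in muscle SCs, depend on the model's prior count and are not bounds, and after thinning only FN1 and SPARC of the 5 were called. FAPs minus VECs gave -3.26 for FN1, -4.05 for TNC, -6.27 for POSTN, -1.32 for SPARC, -1.56 for CTHRC1 and -2.97 for TGFBI. Those of TNC, POSTN and TGFBI rest on 7, 3 and 13 UMIs in muscle VECs, and TGFBI was not called after thinning or without the low-count filter.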

How the results depend on the processing

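Among single members, 444 of 460 values under the alternatives that kept all donors held their direction and their side of the threshold, 8 gained a call, 6 lost one and 2 reversed. Of 178 values with a donor left out, in the FAP and SC cultures, FAP against unsorted cultures and LECs, 144 held, 28 lost the call and 6 reversed. Only values called with all donors could lose a call. No member was called in LECs or between FAP and unsorted cultures, so the 28 lie in the FAP and SC cultures. They are not to be read as a share of the 178. The reversed values were not called. They were FN1 in SMMCs after thinning (-0.064) and CTHRC1 in FAP cultures at P5 against P2 with DESeq2 (-0.012). Leaving out 1 donor gave -0.077 to 0.13 for that CTHRC1 value (reversed without donor 7), -0.50 to 0.80 for TGFBI in the same comparison (donor 7) and -0.27 to 0.036 for TNC at P8 against P5 (donor 8). Between FAP and unsorted cultures it gave -0.14 to 0.12 for THBS1 (0.056 without donor 1, 0.12 without donor 8) and -0.92 to 0.056 for THBS2 (donor 2). The cause was not tested. As UMIs per cell, without a test, 58 of 66 values kept their direction. The log2 ratio at P0 against muscle reversed for SPARC in SCs (1.04), VECs (0.66), SMMCs (0.57) and LECs (0.35) and for FN1 in LECs (0.37), and in FAP cultures at P5 against P2 for THBS1 (-0.025), CTHRC1 (-0.46) and TGFBI (-0.41).

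Genes called at P0 against muscle were 3997 in FAPs, 1789 in SCs, 2071 in VECs, 1257 in SMMCs, 1003 in macrophages and 899 in LECs. Without the low-count filter, which tests more genes, they were 6925, 5286, 5030, 4216, 3389 and 1863, and after thinning, which leaves fewer UMIs, 1614, 493, 1165, 510, 482 and 320. With at least 30 cells SMMCs gave 2177, and macrophages and LECs could not be fitted. Without the filter the median of all genes moved to 0.18 in FAPs, 0.14 in SCs, -0.20 in macrophages, 0.39 in LECs and 0.24 for FAPs against VECs. Thinned interactions called 438 genes for SCs and 975 for VECs. Called members changed to 4 (no filter) and 1 (thinned) in SCs, 6 (no filter) in macrophages, 1 in LECs with no filter, the block or thinning, and 2 in the thinned SC interaction. In FAP cultures the donor block gave 741 genes and 4 members at P5 against P2 and 442 genes at P8 against P5, where DESeq2 gave 366, and between FAP and unsorted cultures DESeq2 gave 77. The block changed the call of no other member than those named beside their results.

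Leaving out 1 donor gave 1907 to 3186 genes and 6 to 7 members in FAP cultures at P2 against P0, 2 to 376 and 0 to 1 at P5 against P2 (225, 2 and 376 without donors 4, 7 and 8), and 0 to 56 and 0 at P8 against P5 (56, 0 and 44 without donors 4, 7 and 8). SC cultures gave 668 to 960 genes (692, 668 and 960 without donors 5, 6 and 10) and 3 to 4 members at P2 against P0 and 0 to 418 and 0 to 5 at P5 against P2. The FAP against unsorted comparison gave 0 to 10 genes, and LECs 650 to 935. Before thinning, shares of cells were 92.9, 81.3 and 99.96% for FN1 in FAPs at muscle, P0 and P2, 51.3 and 78.3% for TGFBI in FAPs and macrophages, 72.7 and 47.0% for TNC in SMMCs and VECs, and 90.6% for THBS1 in SMMCs. With 3 donors per culture, the calls of members depend on single animals as given, and values resting on a few UMIs are limited by depth.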
